A study of Mus musculus with 103 samples.

Results

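T lymphocytes and natural killer (NK) cells were read in the mouse aortic arch through 10 of their genes: Cd3d, Cd3e and Cd3g of the T cell receptor complex, the co-receptors Cd4 and Cd8a, the adhesion receptor Cd2, the kinase Lck, and Nkg7, Gzma and Gzmb of cytotoxic granules. The genes were chosen as markers of these cells by symbol, and all 10 were among the 51456 symbols measured. Of them 9 reached the level needed for testing and Gzmb did not. The libraries, 57 of ApoE knockout (KO) and 46 of wild type (WT) mice, in 12 groups, came from separate female C57BL/6 animals that had been ovariectomized and ate food in which fat gave 42% of calories. KO mice lack apolipoprotein E in all tissues, so remnant lipoproteins stay in the blood and plaques form. Each genotype was given Scl-Ab (the antibody r13C7 against sclerostin, a secreted Wnt antagonist) at 10 mg/kg, or vehicle, by subcutaneous injection every week from an age of 9 to 10 weeks. The diet had begun at 5 to 6 weeks and the ovaries had been removed at 7 to 8 weeks of age. At week 3 (day22 in the labels, age 12 to 13 weeks) there were 9 KO Scl-Ab, 8 KO vehicle, 6 WT Scl-Ab and 8 WT vehicle libraries. At week 8 (day57, age 17 to 18 weeks) there were 10 KO Scl-Ab, 10 KO vehicle, 9 WT Scl-Ab and 5 WT vehicle libraries, and at week 16 (day113, age 25 to 26 weeks) 10 KO Scl-Ab, 10 KO vehicle, 8 WT Scl-Ab and 10 WT vehicle libraries. The lumen had been flushed and the outer fat scraped off before RNA was taken from the whole arch.

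The T cell receptor reads peptide on other cells, and the CD3 chains pass its signal to the cytoplasm, where the kinase Lck, held by the co-receptors CD4 and CD8, starts phosphorylation. Cytotoxic T cells and NK cells kill with granules that hold perforin and granzymes. In mouse atherosclerosis T cells settle in the plaque and in the adventitia. T cells arise in the thymus, which lies against the aortic arch, and thymocytes carry most of the same genes together with Dntt and Rag1, which build the antigen receptors and are off in mature T cells. Dntt and Rag1 are also used by B cell precursors in the marrow. Mouse dendritic cells and some macrophages can also carry CD4.

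Values are deposited FPKQ values, a fragment-per-length type of measure that is not defined in the labels, and the depth of the libraries in reads is unknown. Column sums were 494635.2 to 826445.4, and no pair of libraries held identical values. Apoe itself was 4.31 to 18.2 (median 8.36) in the 57 KO libraries and 220 to 617 (median 358) in the 46 WT libraries, so the genotype labels and the targeted gene did not conflict in any library. Differences are given as differences in mean log2(FPKQ + 1), with KO minus WT or Scl-Ab minus vehicle. That scale understates the ratio of genes as low as these. A gene was called changed at an adjusted p under 0.05 in limma over 14637 genes. Sequencing was done in 3 batches that the design text does not tie to libraries, so a batch cannot be told apart from week, genotype or treatment.

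All 10 genes were low for a whole artery. Cd4 had the highest median over all libraries, 1.27 FPKQ, with a range of 0.103 to 6.16, and was at 0 in none. Cd3g followed with a median of 0.713, Cd2 with 0.641 and Lck with 0.599. Medians were 0.359 for Nkg7, 0.323 for Cd3e, 0.308 for Gzma, 0.262 for Cd3d and 0.239 for Cd8a. Gzmb, the granzyme that triggers apoptosis in the target cell, had a median of 0.128, was at 0 in 24 libraries and reached 1 in 1 library. In tissue as a whole, fewer cells of a type and less RNA per cell cannot be told apart. Other defining genes of these cells were as low: Trac, the constant region of the receptor alpha chain, had a median of 0.442 and was at 0 in 14 libraries, while Ncr1, an NK cell receptor, was at 0 in 69 libraries.

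**Figure D1:**
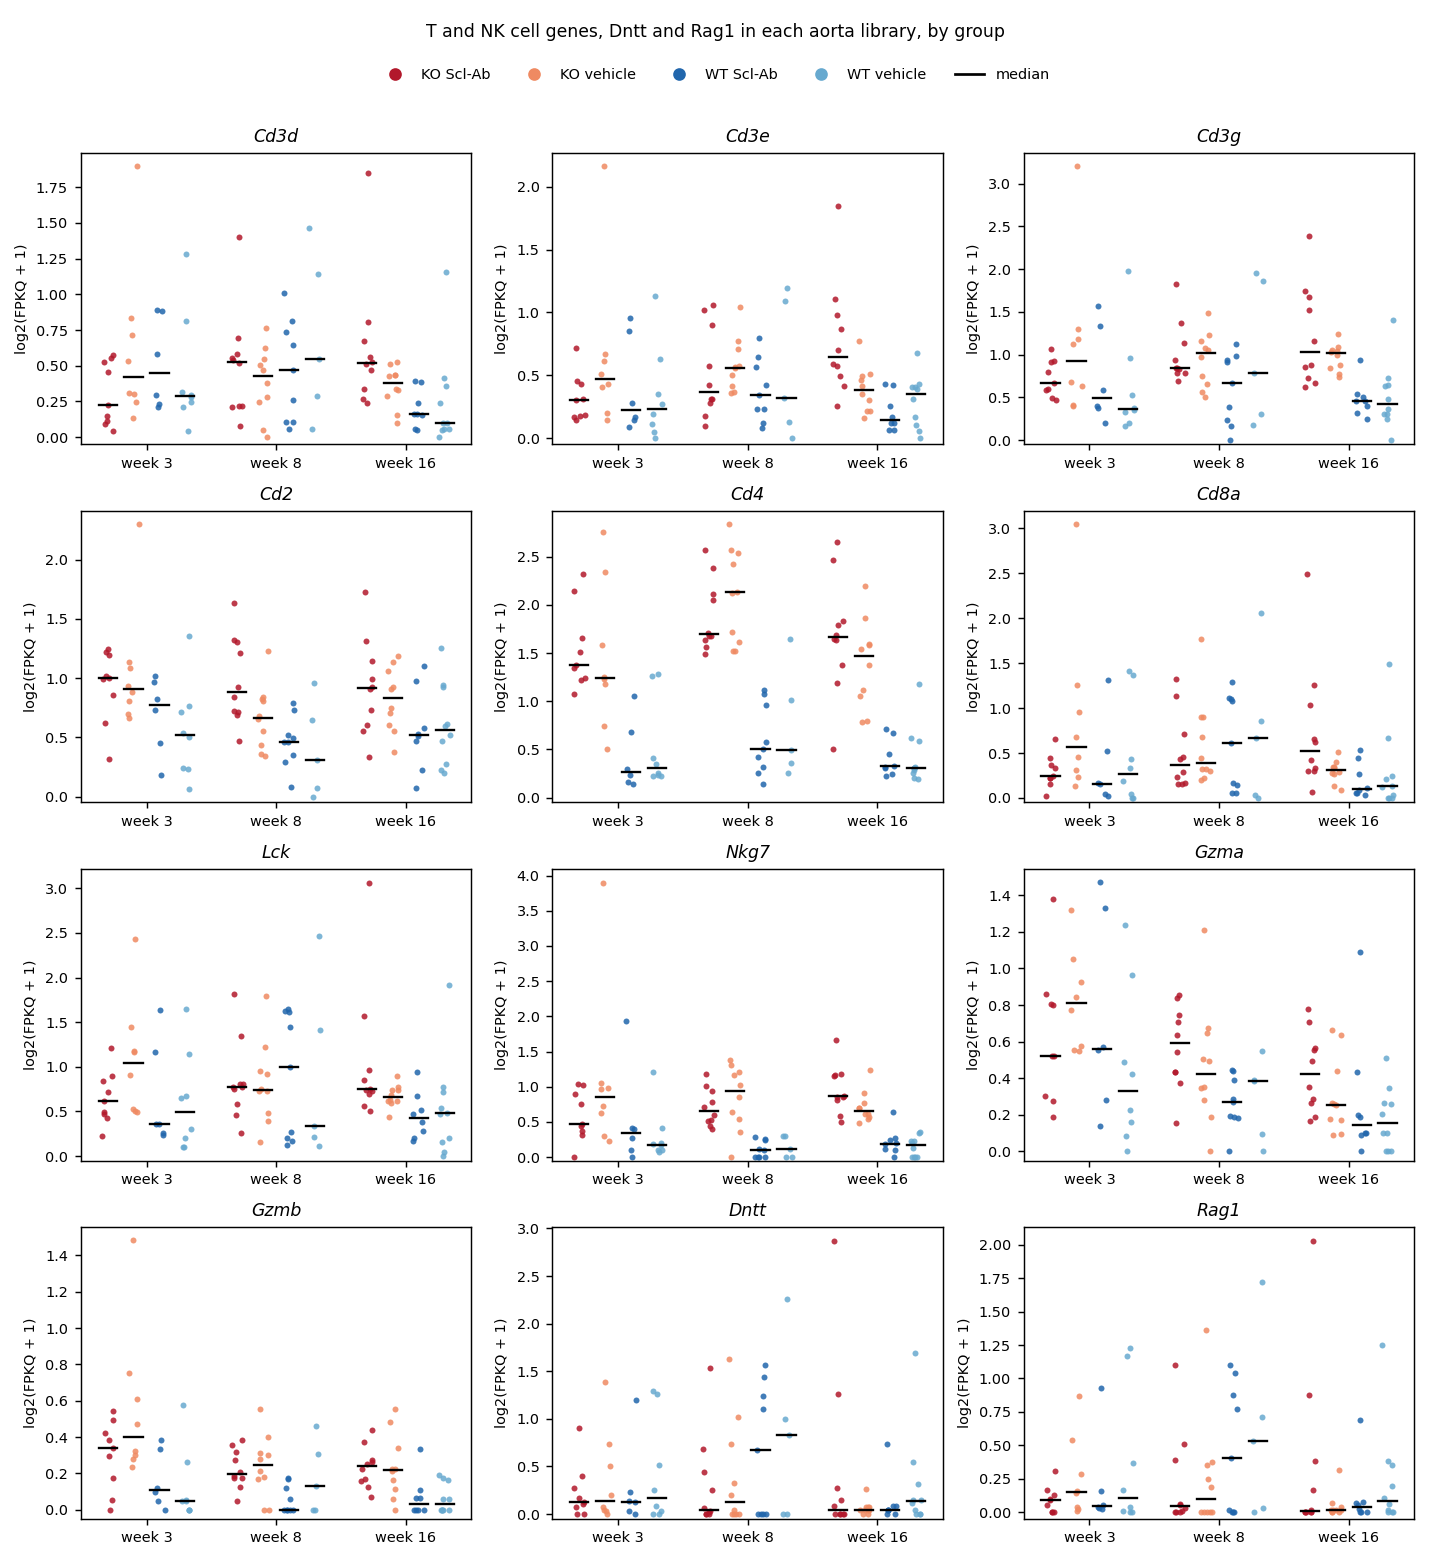
Level of the T and NK cell genes and of Dntt and Rag1 in every library, as log2(FPKQ + 1), by group (within each week KO Scl-Ab, KO vehicle, WT Scl-Ab, WT vehicle). Points are libraries and black lines are group medians; Cd4 lies higher in the KO groups at each week, while Cd8a, Lck and Cd3d have a few high libraries in both genotypes.

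The CD3 genes sit together on chromosome 9 of the mouse (GRCm38), where Cd3g and Cd3d face away from each other with 1355 bases between their starts. Their promoters are shown because the CD3 genes moved together across libraries, and both Lck promoters because the proximal form is used by mouse thymocytes and the distal form also by mature T cells. The 250 bases before each start, read from RefSeq on GRCm38.p6 in the direction of the gene, are given with matches to AGGAAG (an ETS core), TGTGGT (a RUNX core) and CAGGTG (an E-box), on both strands, in capitals.
Cd3d, chr9:44981536-44981785, plus strand: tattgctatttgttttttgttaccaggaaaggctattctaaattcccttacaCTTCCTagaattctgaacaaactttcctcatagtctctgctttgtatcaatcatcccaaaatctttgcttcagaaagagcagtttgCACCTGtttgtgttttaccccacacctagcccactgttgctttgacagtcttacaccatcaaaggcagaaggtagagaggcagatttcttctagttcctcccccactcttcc
Cd3g, chr9:44980432-44980681, minus strand: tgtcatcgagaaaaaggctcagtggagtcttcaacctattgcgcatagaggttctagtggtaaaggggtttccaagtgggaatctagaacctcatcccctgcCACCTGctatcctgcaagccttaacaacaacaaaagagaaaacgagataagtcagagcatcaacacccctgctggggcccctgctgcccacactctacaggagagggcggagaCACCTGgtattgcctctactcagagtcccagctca
Cd3e, chr9:45009612-45009861, minus strand: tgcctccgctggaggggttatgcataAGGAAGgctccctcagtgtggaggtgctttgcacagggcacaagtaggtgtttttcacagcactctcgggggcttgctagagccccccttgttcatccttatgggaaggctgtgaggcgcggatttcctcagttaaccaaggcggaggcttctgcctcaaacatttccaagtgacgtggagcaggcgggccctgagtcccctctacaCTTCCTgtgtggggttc
Lck proximal, chr4:129558373-129558622, minus strand: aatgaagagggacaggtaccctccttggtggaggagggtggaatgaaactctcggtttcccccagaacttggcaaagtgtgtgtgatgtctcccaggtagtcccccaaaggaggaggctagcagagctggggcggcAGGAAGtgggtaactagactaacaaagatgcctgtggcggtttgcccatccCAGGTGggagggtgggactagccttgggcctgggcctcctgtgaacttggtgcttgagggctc
Lck distal, chr4:129573642-129573891, minus strand: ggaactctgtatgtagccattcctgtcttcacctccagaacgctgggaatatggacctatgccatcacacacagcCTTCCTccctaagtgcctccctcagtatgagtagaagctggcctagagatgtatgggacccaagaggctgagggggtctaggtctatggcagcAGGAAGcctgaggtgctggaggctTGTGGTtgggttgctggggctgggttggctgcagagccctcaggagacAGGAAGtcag
Cd3d held 1 ETS and 1 E-box match, Cd3g 2 E-box matches and Cd3e 2 ETS matches. The proximal Lck window held 1 ETS and 1 E-box match, while the distal window, 15269 bases upstream, held 3 ETS matches and 1 RUNX match. Of 32851 promoter windows of the same kind, 29.5% held AGGAAG, 14% TGTGGT and 17.2% CAGGTG. The matches describe these letters only.

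The CD3 genes were called higher in KO than in WT arches in Scl-Ab mice at week 16. They were called there alone among the 6 comparisons of KO with WT within a treatment and week. In those mice Cd3g, the gamma chain, was 0.537 to 4.25 (median 1.04) in 10 KO and 0.187 to 0.911 (median 0.375) in 8 WT libraries. Cd3e, the epsilon chain, was 0.196 to 2.61 (median 0.563) in KO and 0.0436 to 0.348 (median 0.106) in WT libraries. Of the 10 KO libraries, 8 were above the highest WT library for Cd3e and 5 for Cd3g, and 5 of the 8 WT libraries were below the lowest KO library for Cd3e, so the groups overlapped in part. Of all genes 10.2% had ranges that did not overlap here, and 1.3% in vehicle mice at week 3. The differences were 0.74 ± 0.23 for Cd3g (SE, limma adjusted p = 0.00507), 0.58 ± 0.16 for Cd3e (adjusted p = 0.00235) and 0.42 ± 0.17 for the delta chain Cd3d (adjusted p = 0.035). The Cd3d call was lost without KO Scl-Ab replicate 10 of that week, which held the highest Cd3d of the group at 2.60 (0.29, adjusted p = 0.149). That library also held the highest Cd3e and Cd3g of the group, 2.61 and 4.25. In this comparison 5 of the 9 tested genes rose (Cd3d, Cd3e, Cd3g, Cd4, Nkg7), against 43.9% of all genes called and 17.6% called higher.

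No CD3 gene passed in the other 5. Nearest was Cd3g in vehicle mice at week 16, at 0.666 to 1.37 in KO and 0 to 1.64 in WT libraries. Of the 10 WT libraries 9 were below the lowest KO library (0.46, adjusted p = 0.0851), while Cd3d and Cd3e differed by 0.10 and 0.09. In Scl-Ab mice at week 8 the Cd3g difference was 0.40 (adjusted p = 0.158). At week 16 the KO difference of Cd3g was not called unlike between Scl-Ab and vehicle mice (0.29, adjusted p = 0.994). At week 3 in Scl-Ab mice the differences were below 0, at -0.21 for Cd3d, -0.09 for Cd3e and -0.02 for Cd3g (adjusted p = 0.432, 0.745 and 0.957), and Cd3d was 0.0295 to 0.489 (median 0.170) in KO and 0.159 to 0.852 (median 0.362) in WT libraries. For Cd3g the difference was 0.51 in vehicle mice at week 3 (adjusted p = 0.108), where 8 KO libraries held 0.315 to 8.22 (median 0.892) and 8 WT libraries 0.118 to 2.95 (median 0.287). At week 8 under vehicle the CD3 genes did not separate the genotypes: Cd3d was 0 to 0.700 (median 0.345) in KO libraries, and the 5 WT libraries held 0.0419, 1.76, 0.221, 1.20 and 0.459 (-0.31, adjusted p = 0.301). Averaged over the 6 combinations of treatment and week, a comparison added after the data were seen that pools the same libraries, Cd3g was higher in KO by 0.34 ± 0.10 (adjusted p = 0.00176) and Cd3e by 0.18 ± 0.07 (adjusted p = 0.0232). Cd3d was not (0.04 ± 0.07, adjusted p = 0.681). The Cd3e call ended without WT vehicle replicate 5 of week 8, in which Cd3e was at 0 (adjusted p = 0.0509). In that average 6 of 9 genes rose, with 60.5% of all genes called and 23.7% called higher.

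Cd4, the co-receptor of helper T cells, separated the genotypes most steadily: it was higher in KO in each of the 6 comparisons. At week 3 it was 1.1025 to 4.01 (median 1.60) in KO Scl-Ab and 0.106 to 1.08 (median 0.205) in WT Scl-Ab libraries. In vehicle mice of that week it was 0.414 to 5.76 (median 1.37) in KO and 0.166 to 1.43 (median 0.235) in WT libraries. The Scl-Ab groups did not overlap, and in vehicle mice 3 of 8 KO libraries lay above the highest WT library. The differences were 1.11 ± 0.24 in Scl-Ab mice (adjusted p = 0.000365) and 0.92 ± 0.23 in vehicle mice (adjusted p = 0.00208). Cd4 was the 1 gene of 9 called in Scl-Ab mice at week 3, where 25.7% of all genes were called, 13.3% called higher, and 3.28% had ranges that did not overlap. In vehicle mice at week 3 the called genes were 3 of 9 (Cd4, Cd2, Nkg7), against 24.9% of all genes called and 11.6% called higher. That count was 6 without WT vehicle replicate 4, 1 without KO vehicle replicate 5, and 0 when these 2 groups alone were fitted (Cd4 adjusted p = 0.0536).

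At week 8 Cd4 was 1.81 to 4.92 (median 2.23) in KO Scl-Ab and 0.102 to 1.16 (median 0.418) in WT Scl-Ab libraries, again with no overlap. It was 1.86 to 6.16 (median 3.38) in KO vehicle libraries, against 0.196, 2.13, 0.287, 1.02 and 0.413 in the 5 WT vehicle libraries. The differences were 1.29 ± 0.21 (adjusted p = 4.88e-07) and 1.34 ± 0.25 (adjusted p = 1.79e-05). The 2.13 came from the WT library with the most Dntt and Rag1 of its group, 3.79 and 2.30, and 7 of 10 KO vehicle libraries lay above it. At week 16 Cd4 was 0.416 to 5.29 (median 2.18) in KO Scl-Ab and 0.165 to 0.640 (median 0.252) in WT Scl-Ab libraries. It was 0.720 to 3.58 (median 1.76) in KO vehicle and 0.143 to 1.26 (median 0.237) in WT vehicle libraries. Those differences were 1.27 ± 0.22 (adjusted p = 9.65e-07) and 0.97 ± 0.21 (adjusted p = 8.08e-05). Ratios of the medians, KO over WT, ran from 5.35 to 8.64 over the 6 comparisons. By group mean the 6 KO groups took the upper 6 places, and the ranges of mean ± SD of neighbours in that order overlapped throughout. The mean was 3.51 ± 1.51 FPKQ in KO vehicle mice at week 8 (SD, n = 10) and 1.75 ± 0.894 in KO vehicle mice at week 16 (SD, n = 10), the highest and lowest of the KO groups. The highest WT group mean was 0.810 ± 0.806 (SD, n = 5), in vehicle mice at week 8.

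**Figure D2:**
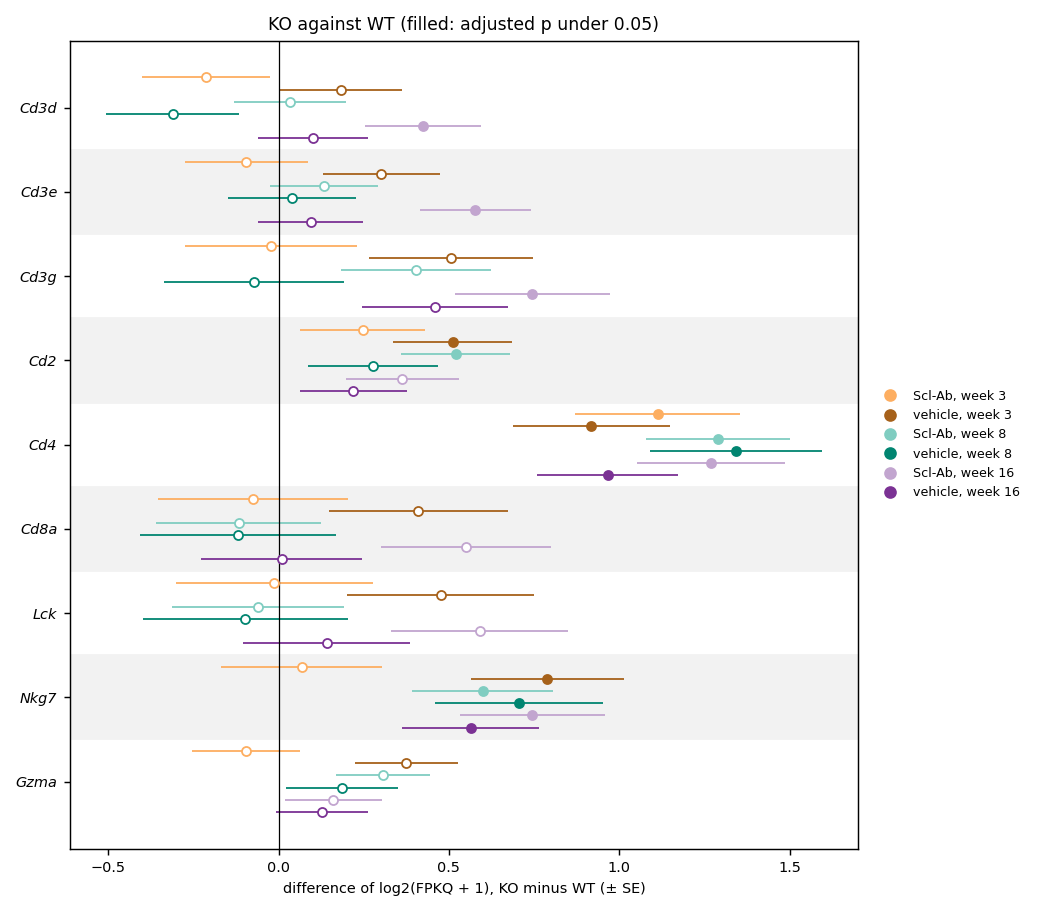
Difference in mean log2(FPKQ + 1), KO minus WT, for the 9 tested genes in each treatment and week (points, with bars of 1 SE; filled where the limma adjusted p is under 0.05). Cd4 is filled in all 6 comparisons at 0.92 to 1.34, and Cd8a, Lck and Gzma are filled in none.

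Cd8a, the co-receptor of cytotoxic T cells, was not called in any comparison of KO with WT. In Scl-Ab mice at week 16 it was 0.0482 to 4.61 (median 0.441) in KO and 0.0217 to 0.452 (median 0.0712) in WT libraries, a difference of 0.55 (adjusted p = 0.0651). At week 8 the medians ran the other way. They were 0.288 in KO Scl-Ab and 0.523 in WT Scl-Ab libraries, and 0.307 in KO vehicle and 0.590 in WT vehicle libraries. Lck was not called either: it was 0.420 to 7.36 (median 0.680) in KO Scl-Ab and 0.125 to 0.919 (median 0.343) in WT Scl-Ab libraries at week 16 (0.59, adjusted p = 0.0567). At week 8 Lck was 0.196 to 2.52 (median 0.712) in KO Scl-Ab and 0.0906 to 2.13 (median 1.0013) in WT Scl-Ab libraries, and its medians were 0.674 in KO vehicle and 0.261 in WT vehicle libraries. The average over the 6 combinations was 0.11 ± 0.11 for Cd8a (adjusted p = 0.379) and 0.17 ± 0.11 for Lck (adjusted p = 0.171).

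Cd2, which binds CD48 in mice and strengthens contact between T or NK cells and their targets, was higher in KO in 2 comparisons. In Scl-Ab mice at week 8 it was 0.388 to 2.11 (median 0.843) in KO and 0.0553 to 0.727 (median 0.377) in WT libraries, with 6 of 10 KO libraries above the highest WT library (0.52 ± 0.16, adjusted p = 0.00801). In vehicle mice at week 3 it was 0.583 to 3.92 (median 0.878) in KO and 0.0431 to 1.56 (median 0.432) in WT libraries (0.51 ± 0.17, adjusted p = 0.0239). Without KO vehicle replicate 5, the source of the 3.92, that difference was 0.33 (adjusted p = 0.119). The average over the 6 combinations was 0.36 ± 0.07 (adjusted p = 6.7e-06), and the KO median was above the WT median in all 6.

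Nkg7, a granule membrane protein of cytotoxic T and NK cells, was the other gene that separated the genotypes, and was called in 5 of 6 comparisons. At week 8 it was 0.321 to 1.27 (median 0.580) in KO Scl-Ab and 0 to 0.215 (median 0.0724) in WT Scl-Ab libraries. In vehicle mice of week 8 it was 0 to 1.60 (median 0.925) in KO libraries, and the 5 WT libraries held 0.231, 0.230, 0, 0.0859 and 0. The Scl-Ab groups did not overlap, and 9 of 10 KO vehicle libraries were above all WT vehicle libraries. The differences were 0.60 ± 0.21 (adjusted p = 0.0185) and 0.71 ± 0.25 (adjusted p = 0.037). In these comparisons 3 of 9 genes (Cd2, Cd4, Nkg7) and 2 of 9 genes (Cd4, Nkg7) were called. Of all genes 32.2% and 15.5% were called in them, 14.3% and 10.2% called higher, and 6.57% and 5.81% of all genes had ranges that did not overlap. The call in vehicle mice of week 8 was not firm: the adjusted p rose above 0.05, to at most 0.0847, in 10 of the 15 fits that left out a single library of the compared groups.

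At week 16 Nkg7 was 0.418 to 2.18 (median 0.822) in KO Scl-Ab and 0 to 0.564 (median 0.141) in WT Scl-Ab libraries. It was 0.406 to 1.35 (median 0.572) in KO vehicle and 0 to 0.282 (median 0.123) in WT vehicle libraries, which did not overlap. The differences were 0.74 ± 0.21 (adjusted p = 0.00271) and 0.56 ± 0.20 (adjusted p = 0.0201). In vehicle mice at week 16, 2 of 9 genes were called (Cd4, Nkg7), against 36.7% of all genes called and 15.5% called higher, and 8.08% of all genes had ranges that did not overlap. At week 3 Nkg7 was 0.173 to 13.9 (median 0.799) in KO vehicle and 0.0563 to 1.31 (median 0.129) in WT vehicle libraries (0.79 ± 0.22, adjusted p = 0.00681). Without the library at 13.9 the difference was 0.39 (adjusted p = 0.0744). In Scl-Ab mice at week 3 it was 0 to 1.05 (median 0.379) in KO and 0 to 2.83 (median 0.264) in WT libraries, and was not called.

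Gzma, the granzyme with trypsin-like activity, was not called in any of the 6 comparisons but was higher in KO in their average, by 0.18 ± 0.06 (adjusted p = 0.00864). Its nearest approach was in vehicle mice at week 3, where it was 0.463 to 1.50 (median 0.751) in KO and 0 to 1.36 (median 0.256) in WT libraries (0.38, adjusted p = 0.0547). Gzmb, below the level for limma, was compared by exact two-sided permutation tests on the log2(FPKQ + 1) scale, within a family of 48 tests with Dntt, Rag1 and Cd1d1. In Scl-Ab mice at week 8 it was 0.0353 to 0.306 (median 0.144) in KO and 0 to 0.130 (median 0) in WT libraries (exact permutation p = 0.00141, adjusted p = 0.0675). It passed in no comparison after adjustment. Its median was above that of WT in all 6 combinations, as were those of Cd4, Nkg7, Cd2, Cd3e and Cd3g. Those of Lck and Gzma were in 5, and those of Cd3d and Cd8a in 4.

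The wider T and NK cell genes gave a mixed count. Of 24 listed genes of T cell receptor signalling and the T lineage, 10 were tested, and 3 to 5 of them rose in KO in each comparison, with none lower. Il7r, the interleukin 7 receptor, Lcp2, an adaptor below the receptor, and the costimulator Cd28 rose in all 6. Il7r was 8.24 to 16.4 (median 10.4) in KO Scl-Ab and 0.0984 to 0.397 (median 0.263) in WT Scl-Ab libraries at week 8 (3.20 ± 0.19, adjusted p = 4e-27). It was not typical of the list, whose 10 tested genes had a median difference of -0.0148 in that comparison. Which cells carried Il7r was not tested. The receptor genes proper moved less. Trac rose in vehicle mice at week 3 alone (0.65 ± 0.24, adjusted p = 0.0347), where KO libraries held 0.248 to 7.21 (median 0.842) and WT libraries 0 to 1.24 (median 0.262). Cd247, the zeta chain of the receptor, rose in vehicle mice at week 3 (0.70 ± 0.17, adjusted p = 0.00137) and in Scl-Ab mice at week 16 (0.68 ± 0.16, adjusted p = 0.000247). List medians were -0.12 to 0.67, against -0.06 to 0.01 for all tested genes. Trbc2, a beta chain constant region, was called in none, and was 0.07 ± 0.18 in the average over the combinations (adjusted p = 0.766).

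Among 20 listed effector, regulatory and homing genes, 11 were tested. In week order and with Scl-Ab before vehicle within a week, 2, 5, 6, 4, 8 and 7 of them rose in KO and none fell. Ccl5, a chemokine made by T and NK cells and by macrophages, was 2.15 to 6.60 (median 4.43) in KO Scl-Ab and 0.103 to 1.20 (median 0.579) in WT Scl-Ab libraries at week 8 (1.78 ± 0.32, adjusted p = 3.77e-06). Cxcr6, a homing receptor of tissue T cells, rose in 4 comparisons, by 0.39 to 0.55. Of 19 listed NK cell and granule genes only 4 were tested, and 2, 3, 4, 2, 3 and 3 of them rose in the same order. Of all genes 10.2% to 17.6% were called higher in these comparisons. The 4 include Srgn and Serpinb9, with medians of 50.3 and 18.1 FPKQ, which were at 0 in no library. Ncr1, Klrb1c, Prf1 and Gzmk were below the level for testing, so the counts do not read NK cells alone. Klrd1, which encodes CD94, was 0.393 to 1.08 (median 0.555) in KO Scl-Ab and 0 to 0.347 (median 0.109) in WT Scl-Ab libraries at week 8 (0.52 ± 0.13, adjusted p = 0.00136). Cd244, an activating receptor of NK and T cells that macrophages can also carry, rose in 5 comparisons, and the adjusted p was 0.0502 in Scl-Ab mice at week 3.

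Markers of other leukocytes moved with genotype as well. Of all genes 10.2% to 17.6% were called higher in these 6 comparisons, and 778 to 3851 of 14637 were called lower. Of 7 macrophage genes, 5 or 6 rose in KO in each comparison, and Mertk, a receptor for dying cells, fell in 3 of them. Their summed level was 490 to 3958 over the KO groups and 135 to 498 over the WT groups. No gene of that list was at 0 in any library, and Cd68 was 22.3 to 258 in KO and 3.60 to 15.3 in WT libraries. Of 7 dendritic cell genes 5 were tested, and 1 to 3 rose per comparison, with 1 lower at week 16. Of 12 B cell genes 5 were tested, and none to 2 rose, with 1 lower, Ighd, in Scl-Ab mice at week 16 (-0.37, adjusted p = 0.03). Across all libraries, with group means removed, Cd4 followed Cd68 with Pearson r = 0.478 and Spearman rho = 0.408 (permutation adjusted p = 0.0001 and 0.000467, over 20 relations; r = 0.412 without the 2 libraries farthest from the median). For Nkg7 the values were r = 0.236 and rho = 0.268 (permutation adjusted p = 0.196 and 0.0247). Genes of the wall itself were lower in KO in several comparisons. Of 6 aortic wall genes, 4 fell in Scl-Ab mice at week 8, 4 in Scl-Ab and 5 in vehicle mice at week 16, and 3 in vehicle mice at week 3, where the endothelial cadherin Cdh5 rose. None was called in the other comparisons. Of all 14637 genes 2621, 3851, 3091 and 1956 were called lower in the comparisons where wall genes fell, in that order. The smooth muscle actin Acta2 fell by 0.70 in vehicle mice at week 16 (adjusted p = 0.000304), and the median sum of the list was 9851 in KO vehicle and 15932 in WT vehicle libraries. At week 3, 3 of 5 brown fat genes and 3 of 6 white fat genes fell in Scl-Ab mice, with median sums of 509 in KO and 2353 in WT libraries for brown fat, and of 1111 in KO and 3568 in WT libraries for white fat. Of all 14637 genes 1813 were called lower in that comparison. The part of these cells and tissues in the KO differences of Cd4, Nkg7 and the other T and NK cell genes was not tested directly. B cell genes, and fat and muscle genes, were covariates in alternative fits, while macrophage, dendritic cell and wall genes were not.

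Thymocyte genes varied from animal to animal. The sum of Dntt and Rag1 reached 1 in 21 libraries. At week 3 these were 1 of 9 KO Scl-Ab, 2 of 8 KO vehicle, 1 of 6 WT Scl-Ab and 2 of 8 WT vehicle libraries. At week 8 they were 2 of 10, 2 of 10, 4 of 9 and 3 of 5, and at week 16 they were 2 of 10, 0 of 10, 1 of 8 and 1 of 10, in the same order. Dntt and Rag1 were each listed at 0 in 31. Neither gene passed between KO and WT or between Scl-Ab and vehicle in exact permutation tests, with adjusted p-values of 0.423 to 0.879 for Dntt and 0.423 to 0.872 for Rag1. The medians were not even between genotypes. For Dntt the KO median was above the WT median in 0 of the 6 combinations of treatment and week, and for Rag1 in 2. At week 8 Dntt was 0 to 1.90 (median 0.0323) in KO Scl-Ab and 0 to 1.95 (median 0.596) in WT Scl-Ab libraries. In vehicle mice of that week it was 0 to 2.09 (median 0.0886) in KO libraries, and the 5 WT libraries held 0, 3.79, 0, 0.997 and 0.784. Of 9 listed thymocyte genes 4 were tested and none was called between KO and WT. Their summed level was 0.463 to 23.3 over the KO groups and 0.512 to 18.3 over the WT groups. Of 5 listed genes of thymic epithelium, Foxn1 was at 0 in 100 libraries, Aire in 96, Psmb11 in 67 and Prss16 in 43, and the highest value among these 4 was 0.292. The chemokine Ccl25 was at 0 in 1 library, with a median of 1.1003, and rose in KO vehicle mice at week 8 (0.47, adjusted p = 0.00739). The summed level of the list had group medians of 0.962 to 1.94.

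Cd8a, Lck and Cd3d went with Dntt and Rag1, and Nkg7 did not. In the 21 libraries the median of Cd8a was 1.39 FPKQ, against 0.181 in the other 82. Medians in the same order were 1.96 and 0.467 for Lck, 0.759 and 0.209 for Cd3d, 0.640 and 0.241 for Cd3e, and 1.24 and 0.581 for Cd3g. Cd8b1, the partner chain of Cd8a, had medians of 1.77 and 0.267. In contrast, medians were 0.285 and 0.371 for Nkg7, 0.131 and 0.127 for Gzmb, 0.407 and 0.271 for Gzma, 0.768 and 0.614 for Cd2 and 1.40 and 1.14 for Cd4.

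With group means removed, the mean log2 level of Dntt and Rag1 had a Pearson r of 0.854 with Lck, 0.808 with Cd8a, 0.725 with Cd3d, 0.595 with Cd3g and 0.594 with Cd3e over all libraries. Spearman rho was 0.759, 0.801, 0.646, 0.548 and 0.565 in that order. All of these had a permutation adjusted p of 4e-05, from raw p-values of 1e-05, the smallest that 100000 permutations can give. Without the 2 libraries farthest from the median, r was 0.806, 0.757, 0.652, 0.533 and 0.499. It was 0.423 for Cd4 (rho = 0.301), 0.280 for Cd2 (rho = 0.293) and 0.254 for Gzma (rho = 0.219), with permutation adjusted p-values of r of 0.000314, 0.0203 and 0.0185. For Nkg7 r was -0.0088 and rho -0.0336 (permutation adjusted p = 0.928 and 0.802), and for Gzmb r was 0.0400 and rho 0.0955 (permutation adjusted p = 0.759 and 0.409). The genes also differed in how they followed each other: across libraries Cd8a and Lck had r = 0.916 and Cd3d and Cd8a 0.887, while Nkg7 and Lck had 0.354 and Nkg7 and Gzmb 0.567.

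**Figure D3:**
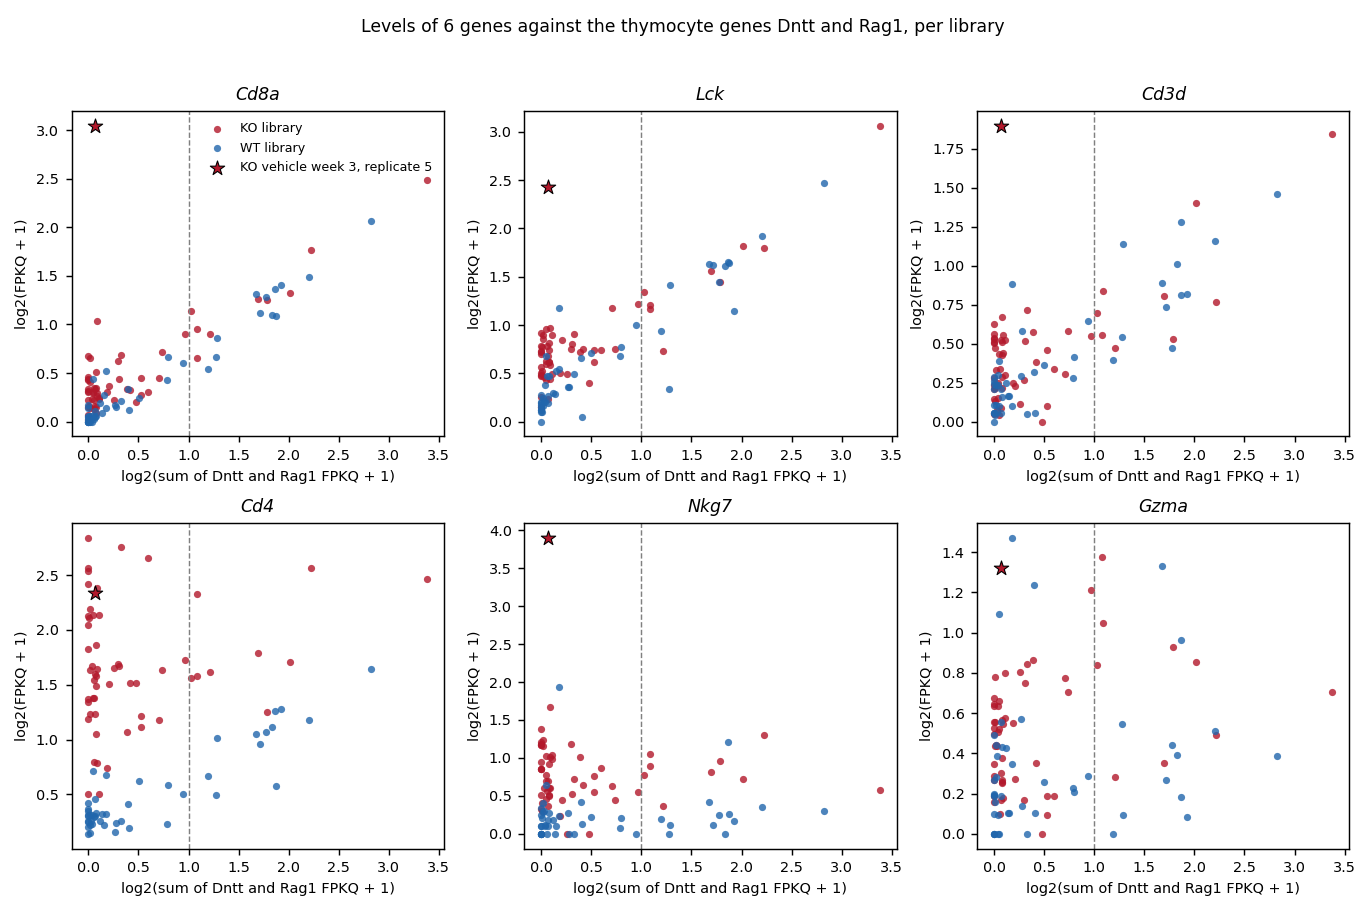
Level of Cd8a, Lck, Cd3d, Cd4, Nkg7 and Gzma against the summed level of Dntt and Rag1, both as log2(FPKQ + 1), in each library (KO red, WT blue; dashed line at a sum of 1; star, KO vehicle replicate 5 of week 3). Cd8a, Lck and Cd3d climb to the right of the line in both genotypes, Nkg7 stays level, and the star is high for Cd8a and Nkg7 at a sum near 0.

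A pair of libraries showed the separate patterns. KO Scl-Ab replicate 10 of week 16 had the most Dntt and Rag1 of all, 6.32 and 3.09, with Cd8a at 4.61, Cd8b1 at 6.87, Lck at 7.36 and Trbc2 at 21.05. Its Nkg7 was 0.493, inside the range of its group. KO vehicle replicate 5 of week 3 had Dntt at 0.0277 and Rag1 at 0.0172, yet held the highest Cd3d (2.73), Cd3e (3.48), Cd3g (8.22), Cd2 (3.92), Cd8a (7.25), Nkg7 (13.9) and Gzmb (1.79) of all libraries. It also held Ccl5 at 150, against at most 10.2 in the other 7 libraries of its group, Cxcr6 at 7.06 and Cd8b1 at 6.33. Its Lck was 4.39 and its Gzma 1.50.

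Cd1d1, which presents lipids to NKT cells and is expressed by many cell types, was high in some of these 21 libraries and low in others. It was 1.35 to 56.3 over all libraries, with medians of 8.15 in the 21 libraries and 5.71 in the other 82. The 10 libraries with the highest Cd1d1 (27.04 to 56.3) had Ucp1, the brown fat uncoupling protein, at 1102 to 3383, and the 10 with the lowest Cd1d1 (1.35 to 2.10) had it at 10.8 to 86.7. In each of these sets of 10, chosen after the data were seen, 3 libraries had Dntt and Rag1 summing to 1 or more. Of the 10 high libraries 9 were of week 3. Cd1d1 passed no permutation test between groups, the lowest adjusted p being 0.189, but in limma it was higher in WT Scl-Ab than in WT vehicle mice at week 3 (1.26, adjusted p = 0.0453).

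With Dntt and Rag1 taken into account the KO differences of Cd8a, Lck and Cd3d were larger, and those of Cd4 and Nkg7 moved little. With their mean log2 level as a covariate, the average KO difference over the 6 combinations was 0.23 ± 0.06 for Cd8a (adjusted p = 0.00132), 0.30 ± 0.06 for Lck (adjusted p = 5.09e-06) and 0.11 ± 0.05 for Cd3d (adjusted p = 0.0586). It was 1.20 ± 0.09 for Cd4 and 0.58 ± 0.09 for Nkg7. Without the 21 libraries all 9 genes were called in the average, with Cd8a at 0.28 ± 0.08 (adjusted p = 0.00311), Lck at 0.37 ± 0.08, Cd3d at 0.16 ± 0.06 (adjusted p = 0.0202), Cd4 at 1.33 ± 0.10 and Nkg7 at 0.61 ± 0.12. Leaving out KO vehicle replicate 5 of week 3 as well, a setting chosen after the data were seen, kept all 9 called, with Cd8a at 0.21 ± 0.05 and Cd3d at 0.12 ± 0.05. Both settings kept the genes chosen for testing over all libraries. Without the 21, Cd3d, Cd3e and Cd8a reached an FPKQ of 1 in fewer than 5 libraries, below the minimum for testing. Without replicate 5 as well, so did Lck and Gzma. Their calls here thus rest on a minimum met through the libraries left out. Of all genes 60.5% were called in this average in the main fit with all libraries. The share under the other settings is not given here, so 9 of 9 cannot be set against it. Calls at single times moved both up and down. Without the 21 libraries Nkg7 was no longer called at week 8 in vehicle mice (0.70 ± 0.38, adjusted p = 0.282, 8 KO and 2 WT libraries left) or Scl-Ab mice (0.62 ± 0.28, adjusted p = 0.103, 8 KO and 5 WT libraries left), with differences close to the 0.71 and 0.60 of all libraries. Likewise Cd3d was not called in Scl-Ab mice at week 16 (0.28, adjusted p = 0.0823). Under vehicle at week 3 the covariate raised the count of called genes to 7 of 9, against 3, and the count was 1, Cd4, without the 21 libraries and replicate 5. The share of all genes called there was 24.9% in the main fit and is not given for these settings.

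**Figure D4:**
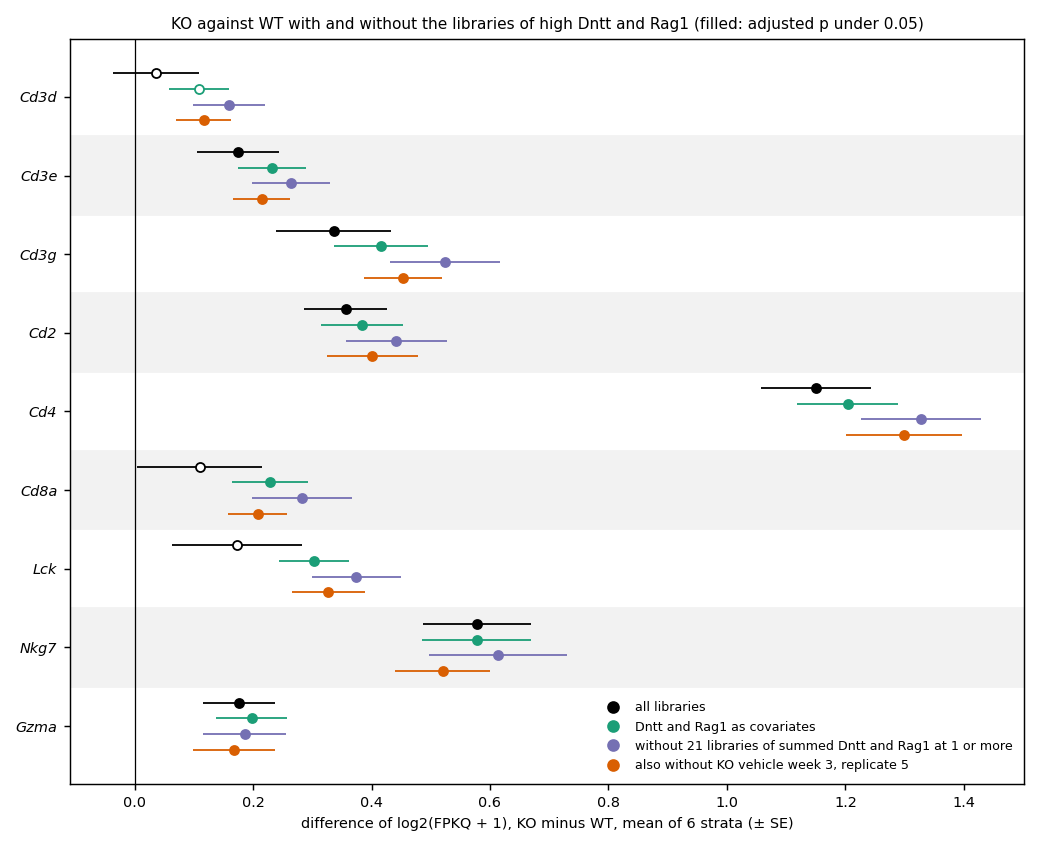
KO minus WT difference in mean log2(FPKQ + 1), averaged over the 6 combinations of treatment and week, for each of the 9 genes under 4 settings (points, with bars of 1 SE; filled where the adjusted p is under 0.05). Cd8a, Lck and Cd3d lie near 0 with all libraries and higher once libraries or a covariate for Dntt and Rag1 are used, and Cd4 and Nkg7 lie above 0 in all 4.

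Against vehicle, Scl-Ab gave no call for any of the 9 genes in limma, in either genotype at any week. At week 3 in KO mice, 2 of 9 had an unadjusted p under 0.05, as did 3870 of all 14637 genes, with 9.15% of all genes called. These were Nkg7 (-0.51 ± 0.22, adjusted p = 0.122) and Cd8a (-0.59 ± 0.26, adjusted p = 0.127). Nkg7 was 0 to 1.05 (median 0.379) in KO Scl-Ab and 0.173 to 13.9 (median 0.799) in KO vehicle libraries, and Cd8a was 0.0136 to 0.580 (median 0.183) and 0.0984 to 7.25 (median 0.487), with both upper ends from replicate 5. At the other times the lowest adjusted p of the 9 genes in KO mice was 0.287 at week 8 and 0.227 at week 16. At week 8, 1 gene had an unadjusted p under 0.05, Cd2, which was 0.388 to 2.11 (median 0.843) in KO Scl-Ab and 0.265 to 1.35 (median 0.585) in KO vehicle libraries. Of all 14637 genes 2523 had such a p in that comparison, and 1.81% were called. At week 16 the 1 such gene of the 9 was Cd3e, at 0.196 to 2.61 (median 0.563) in KO Scl-Ab and 0.118 to 0.709 (median 0.303) in KO vehicle libraries (0.39 ± 0.15). Of all 14637 genes 2103 had an unadjusted p under 0.05 there, and 0.0137% were called. Without KO vehicle replicate 2 of week 3, Nkg7 was called there (-0.63, adjusted p = 0.0472). All 9 differences in KO mice at week 16 were above 0, at 0.10 to 0.45, while 8 of 9 were below 0 at week 3. At week 16 the means of Dntt and Rag1 were also higher in KO Scl-Ab mice, by 0.40 (limma adjusted p = 0.452) and 0.30 (limma adjusted p = 0.445). Their medians were not: 0.0291 in KO Scl-Ab and 0.0293 in KO vehicle libraries for Dntt, and 0.0043 and 0.0088 for Rag1. A sum of 1 or more was reached by 2 of 10 KO Scl-Ab and 0 of 10 KO vehicle libraries. The summed thymocyte list was 1.15 to 23.3 (median 3.39) in KO Scl-Ab and 1.16 to 2.09 (median 1.56) in KO vehicle libraries. Its part in the 9 differences was not tested beyond the alternative fits with thymocyte genes as covariates.

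In WT mice none of the 9 genes had an unadjusted p under 0.05 at week 3, week 8 or week 16. Of all 14637 genes 5630, 1497 and 797 had such a p in that order, and 26.9%, 0% and 0.00683% were called. The lowest adjusted p of the 9 genes was 0.205, 0.652 and 1 in that order. Averaged over the 3 weeks, a comparison added after the data were seen, none of the 9 was called or had an unadjusted p under 0.05 in either genotype. Of all 14637 genes 4240 had such a p in KO and 4515 in WT, and 16.2% were called in KO and 15.9% in WT. Those averages were 0.06 ± 0.12 in KO and -0.09 ± 0.14 in WT for Cd4, and -0.13 ± 0.12 in KO and 0.08 ± 0.14 in WT for Nkg7. A difference in the response to Scl-Ab between KO and WT was called for none of the 9 genes in limma at any week. At an unadjusted p under 0.05 there were 2 at week 3, 0 at week 8 and 1 at week 16. Of all 14637 genes 4742, 1037 and 309 had such a p in that order, and 18.2%, 0% and 0% were called. At week 3 the count of called genes was 2 (Nkg7 and Gzma) without WT vehicle replicate 4 and 1 without WT vehicle replicate 6 or WT Scl-Ab replicate 3. A change of the KO difference under vehicle was called for none of the 9 from week 3 to week 8 or to week 16, and none had an unadjusted p under 0.05. Of all 14637 genes 2081 and 2659 had such a p in that order, and 0.273% and 4.22% were called. These comparisons reuse the libraries of those above. Of the wider T lineage, effector and NK cell lists, no tested gene was called between Scl-Ab and vehicle within a week. Averaged over the weeks Tnfrsf4, the costimulatory receptor OX40, was lower with Scl-Ab in WT (-0.25, adjusted p = 0.00742). The Scl-Ab response of Cd247 at week 3 was lower in KO than in WT (-0.78, adjusted p = 0.0186). The KO difference under vehicle was larger at week 16 than at week 3 for Il7r (1.38, adjusted p = 0.000493) and Cd244 (0.61, adjusted p = 0.0336).

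**Figure D5:**
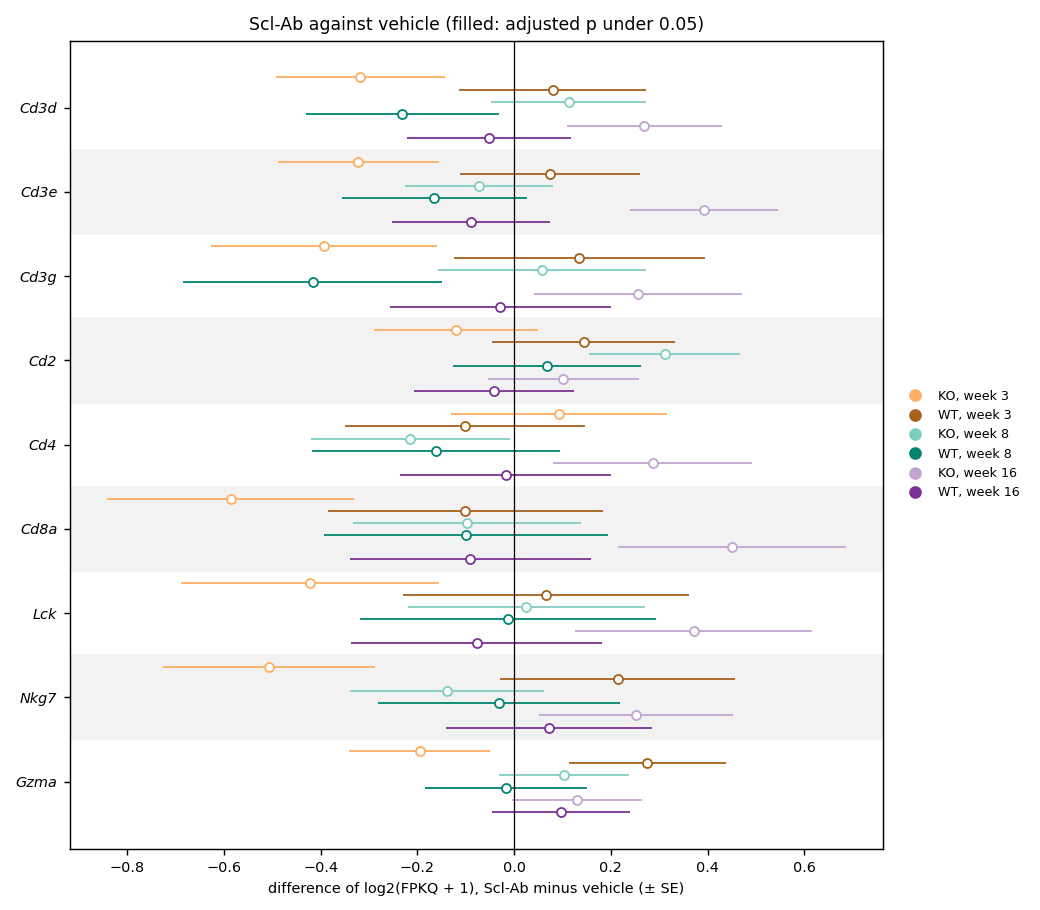
Difference in mean log2(FPKQ + 1), Scl-Ab minus vehicle, for the 9 tested genes in each genotype and week (points, with bars of 1 SE; filled where the limma adjusted p is under 0.05). No point is filled; the KO points lie mostly below 0 at week 3 and all above 0 at week 16.

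The genes most like the CD3 genes were sought by the correlation, with group means removed, of each of 11807 genes with the mean log2 level of Cd3d, Cd3e and Cd3g over all libraries. Lat, the membrane adaptor of T cell signalling, was nearest at r = 0.820, ahead of Tcf7, a transcription factor of early and resting T cells, at 0.685, Sept1 at 0.660, Ccl5 at 0.621 and Ptprc, which encodes the leukocyte antigen CD45, at 0.604. Without KO vehicle replicate 5 of week 3, Lat (0.801) and Tcf7 (0.788) kept their places and Ccl5 left the 10 nearest. For Gzma the nearest were Ly6c2 (0.548) and the class I genes H2-Q6 (0.544), H2-Q7 (0.521) and H2-Q4 (0.518), which are near-identical copies whose reads may be shared between them.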

How the data were processed

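Expression was measured by TruSeq stranded mRNA sequencing of RNA with an integrity number of at least 7. The authors deposited 1 FPKM-type value per gene symbol and library, named FPKQ per the file headers and not defined there. The build GRCm38 and the tool DESeq2 1.10.1 appear in the list of the submitters' processing notes. The aligner, the counter, the annotation and any use of strand were not given in the sources used here. 1 of the files had no header line and was read by column position. Depth in reads is unknown, so no counting error can be given.

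Labels gave the groups. A gene needed an FPKQ of 1 or more in 5 or more libraries, which left 14637. Their log2(FPKQ + 1) values were modelled by group over all libraries with limma 3.58.1 under R 4.3.3, using a mean-variance trend, robust empirical Bayes and two-sided Benjamini-Hochberg adjustment across the 14637. The 17 comparisons planned were of KO with WT, of Scl-Ab with vehicle, and of these differences with each other; 3 averages were added. Single genes below the minimum and Dntt, Rag1 and Cd1d1 were compared by exact permutation tests in Python 3.11.15 with scipy 1.17.1. The fit was tested on simulated data.

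The genes and the marker lists were chosen with earlier results of these data known. All 10 genes were named in each comparison where they were called or nearly so, and of each list up to 4 called genes. Alternatives were a pseudocount of 0.1, no minimum or a minimum of 5, rescaling by median of ratios, fits on the compared groups alone, a block for replicate number, covariates for Dntt and Rag1 and for other tissues, and leaving out libraries. Same-numbered replicates did not deviate together in all pairs of any comparison, so the numbers were not taken as pairs.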

Additional observations from a re-analysis of the deposited data

Results flagged for a closer look

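In each group of 4 to 10 libraries the highest or lowest value was looked at for a wide gap to the rest (Dixon's test at 95%), for the 10 genes and for Dntt, Rag1 and Cd1d1. Of 156 pairs of gene and group 40 had such a value, the highest library in each, and chance gives about 1 in 20. Values here are FPKQ.

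KO vehicle replicate 5 of week 3 stood out for Cd3d (2.73), Cd3e (3.48), Cd3g (8.22), Cd2 (3.92), Cd8a (7.25), Nkg7 (13.9) and Gzmb (1.79), at a Dntt of 0.0277. KO Scl-Ab replicate 10 of week 16 had Cd3d at 2.60, Cd3e at 2.61, Cd8a at 4.61, Lck at 7.36, Dntt at 6.32 and Rag1 at 3.09. WT vehicle replicate 8 of week 16 had Cd3d at 1.23, Cd3g at 1.64, Cd8a at 1.80, Cd4 at 1.26, Lck at 2.79, Dntt at 2.24 and Rag1 at 1.37. KO Scl-Ab replicate 4 of week 8 had Cd3d at 1.64, Dntt at 1.90 and Rag1 at 1.14, and KO vehicle replicate 7 of week 8 had Cd8a at 2.40 and Rag1 at 1.57.

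Dntt or Rag1 alone stood out in WT Scl-Ab replicate 5 of week 3 (Dntt 1.29, Rag1 0.901), KO Scl-Ab replicate 7 of week 3 (Dntt 0.877), KO vehicle replicate 4 of week 16 (Dntt 0.195, Rag1 0.245) and WT Scl-Ab replicate 7 of week 16 (Dntt 0.668, Rag1 0.616). Cytotoxic genes stood out in 3 WT libraries. WT Scl-Ab replicate 4 of week 3 had Nkg7 at 2.83. WT vehicle replicate 4 of week 3 had Nkg7 at 1.31, Gzmb at 0.492 and Cd3g at 2.95, with Dntt at 1.40 and Rag1 at 1.25, and WT Scl-Ab replicate 6 of week 16 had Nkg7 at 0.564, Gzma at 1.13, Gzmb at 0.260 and Cd3g at 0.911, with Dntt at 0.0301 and Rag1 at 0.

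The response of Cd1d1 to Scl-Ab at week 3 differed between KO and WT by -2.18 on the log2 scale in limma (adjusted p = 0.0149). Within a genotype the limma differences were -0.92 in KO (adjusted p = 0.165) and 1.26 in WT (adjusted p = 0.0453), while exact permutation tests gave an adjusted p of 0.423 in KO and 0.423 in WT.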

How the results depend on the processing

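No called difference of a gene changed its direction under any alternative. Cd4 stayed called in KO against WT in all of them but the fit of the compared groups alone in vehicle mice at week 3. The share of all genes called is given above for the main fit alone. It is not given for the other settings or for fits that left out a library, so their counts lack a background. Fits that left out libraries kept the genes chosen for testing over all libraries. The number of called genes of 9 in KO against WT moved as follows. Changes small for the size of the count, such as from 5 to 7, are not listed. Under vehicle at week 3 (3 called) it was 7 with the Dntt and Rag1 covariate at either pseudocount and 7 without the 21 libraries, 1 without those and KO vehicle replicate 5, and 0 with the compared groups alone. In Scl-Ab mice at week 3 (1 called) it was 2 with covariates for Dntt and Rag1 and for fat and muscle. Under vehicle at week 8 (2 called) it was 1 with no minimum, 1 without the 21 libraries and 1 without those and replicate 5. In Scl-Ab mice at week 8 (3 called) it was 5 with the Dntt and Rag1 covariate at either pseudocount, 5 with a covariate of 6 thymocyte genes and 5 with fat and muscle added. Under vehicle at week 16 (2 called) it was 4 with the covariate, 6 at the pseudocount of 0.1, 4 with fat and muscle added and 4 without the 21 libraries and replicate 5. In Scl-Ab against vehicle in KO at week 3 (0 called) it was 1, Cd8a, with the covariates of Dntt and Rag1 and of fat and muscle. The cause of these moves was not tested.

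Leaving out each library in turn gave 1 to 6 called genes in KO against WT in vehicle mice at week 3, 1 to 2 in vehicle mice at week 8, 0 to 1 in Scl-Ab against vehicle in KO at week 3, and 0 to 2 for the Scl-Ab response between genotypes at week 3. For KO against WT it also gave 3 to 4 in Scl-Ab mice at week 8, and 4 to 7 in Scl-Ab and 2 to 3 in vehicle mice at week 16. In the average over the 6 combinations it gave 5 to 7. With the replicate number as a block the count in vehicle mice at week 3 was 3. The replicate block, like median of ratios rescaling, moved no count by more than the small changes left unlisted above. With a minimum of 5 none of the genes was left, so no value was had. Covariates of Dntt and Rag1 were added with fat and muscle, with 6 thymocyte genes or with the other pseudocount after the data were seen. Depth in reads is unknown, and genes this low are limited by it.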
